A study of Mus musculus with 6 samples.

Results

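The Notch pathway genes described here are 10 genes of the deposited expression table, taken by gene symbol: the receptors Notch1, Notch2 and Notch3, the ligands Jag1, Jag2 and Dll1, the glycosyltransferase Lfng, the DNA-binding factor Rbpj and the target factors Hes1 and Hey1. All 10 were present among the 55421 genes of the table. They were measured in tongue epithelium of 6 mice, 1 library per mouse. In 3 mice (KO, genotype K14CreERT2 IRE1 F/F) a Cre recombinase that tamoxifen switches on was expressed from the keratin 14 promoter, a promoter of basal keratinocytes, on a background of floxed Ire1α alleles. The 3 littermates (WT, genotype IRE1F/F) carried the floxed alleles without Cre. Tamoxifen was given to both groups for 4 days in a row, tissue was taken on day 5, and the age of the mice is not given in the sources used here. Because the WT mice had no Cre, loss of Ire1α and the presence of active Cre cannot be told apart. Ire1α detects misfolded protein inside the endoplasmic reticulum, and the comparison asks how the tongue epithelium differs without it.

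Notch signalling passes between neighbouring cells. A ligand of the Jagged or Delta-like family on one cell binds a Notch receptor on the next, proteases release the intracellular domain of the receptor, and this domain joins Rbpj on DNA and turns on repressors of the Hes and Hey families. In stratified epithelia such as mouse epidermis the pathway is known for driving basal keratinocytes into the suprabasal layers, and Hes1 is known there for keeping early suprabasal cells from maturing too soon. Fringe enzymes such as Lfng add a sugar to the receptors and alter which ligand they answer to.

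Libraries held 5202101, 6286153 and 5984402 reads in KO replicates 1 to 3 and 5911884, 5516801 and 4606309 reads in WT replicates 1 to 3. The kit makes a tag near the 3' end of each mRNA, so values are normalised read counts that were not divided by gene length. The targeted gene Ern1 had 78.0, 117 and 123 in KO and 102, 105 and 77.1 in WT (limma adjusted p = 0.847), and since the labels do not name the removed exons, a tag at the 3' end is no check of the genotype. The 10 keratinocyte markers were all tested, and their summed value was 751297 to 1051991 in KO and 567036 to 749525 in WT, against at most 14.3 in KO and 11.8 in WT for 7 taste bud markers, of which Snap25 and Entpd2 were listed at 0. KO replicate 1 stood apart in skeletal muscle transcripts, whose 10 markers summed to 99.97 to 2139 in KO, with the highest value in replicate 1, and 135 to 323 in WT. Acta1 among them was listed at 0 in all libraries.

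Promoter windows were looked up because Rbpj and the Hes and Hey factors act on DNA. The RefSeq table (GRCm38.p6) gives windows of 250 bases before to 50 bases after a gene start, and it held 8 of the 10 genes, without Hes1 and Hey1. The windows of Notch2 and Jag1 are shown because the levels of these genes ran most alike across libraries among the 10, and that of Lfng because it alone of the 8 holds the longer Rbpj motif. Capitals mark TGGGAA (the core Rbpj motif) and its longer form GTGGGAA, the E-box CACGTG and the N-box CACNAG, read on both strands.

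Notch2, chr3:98013288-98013587, plus strand:
Notch2: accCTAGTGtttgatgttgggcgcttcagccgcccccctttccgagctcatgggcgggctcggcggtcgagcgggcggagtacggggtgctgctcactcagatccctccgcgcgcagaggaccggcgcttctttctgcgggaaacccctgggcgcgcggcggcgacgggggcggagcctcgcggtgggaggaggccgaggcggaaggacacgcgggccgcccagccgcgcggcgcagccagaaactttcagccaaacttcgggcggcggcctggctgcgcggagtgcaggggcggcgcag
Jag1, chr2:137116471-137116770, minus strand:
Jag1: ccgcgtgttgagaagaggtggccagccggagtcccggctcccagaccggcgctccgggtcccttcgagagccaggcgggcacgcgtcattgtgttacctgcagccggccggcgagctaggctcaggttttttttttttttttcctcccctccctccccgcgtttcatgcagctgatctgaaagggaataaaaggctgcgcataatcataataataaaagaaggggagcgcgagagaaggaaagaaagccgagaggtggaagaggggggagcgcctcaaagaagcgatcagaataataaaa
Lfng, chr5:140607091-140607390, plus strand:
Lfng: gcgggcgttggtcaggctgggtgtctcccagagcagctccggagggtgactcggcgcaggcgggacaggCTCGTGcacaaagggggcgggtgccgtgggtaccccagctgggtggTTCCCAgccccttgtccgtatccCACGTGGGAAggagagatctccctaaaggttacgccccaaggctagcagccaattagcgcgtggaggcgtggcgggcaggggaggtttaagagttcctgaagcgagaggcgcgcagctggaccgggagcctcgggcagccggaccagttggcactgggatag

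The core motif was present in windows of 2 of the 8 genes, Lfng and Rbpj, and in 25.6% of all 32851 promoter windows in the table. The longer form was present in 1 of the 8, Lfng, against 6.38% of all windows, and there it overlaps an E-box and contains 1 of the 2 core matches. An N-box was present in windows of 5 of the 8, against 42.5% of all windows. The Jag1 window holds none of the motifs searched. A gene was counted if any of its windows held the motif, and Dll1 and Rbpj have 2 windows each, whereas the shares are of single windows. Dll1 holds an N-box only in window 2. These are matches of letters in a short window.

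No Notch pathway gene passed the test between KO and WT. Of the 10 genes, 8 passed the filter on low values (at least 10 in at least 3 libraries) and 0 of the 8 were called by limma at an adjusted p under 0.05, with 0 at an unadjusted p under 0.05, 0 called by edgeR and 0 by DESeq2. Over all 10987 genes tested, limma called 1.80%, edgeR 1.73% and DESeq2 3.35%, and by limma 13.5% were under 0.05 before adjustment. The groups overlapped in each of the 10 genes, whereas they did not overlap in 19.1% of the genes tested. The median log2 fold change of the 8 was -0.22, against -0.01 over all tested genes, and 6 of the 8 were negative, against 5593 of 10987. In bulk tissue, fewer cells of a type and less RNA per cell cannot be told apart.

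**Figure D1:**
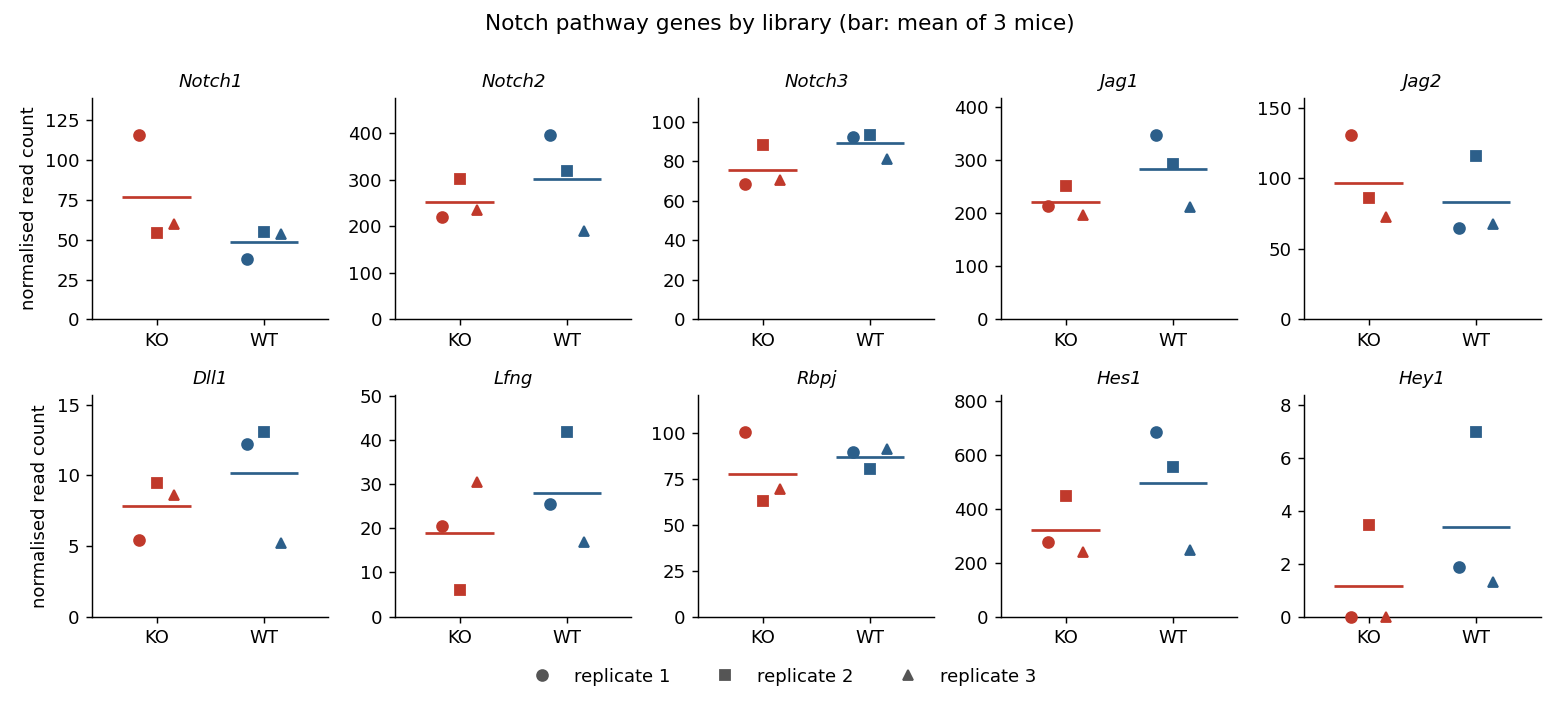
Normalised read counts of the 10 Notch pathway genes, with KO on the left and WT on the right of each panel and a bar at the mean of 3 mice. The groups overlap in every panel, and Hes1 spans 239 to 686 over the 6 libraries.

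Among the receptors, Notch2 was the most abundant in every library and Notch1 varied most. Notch1 (ENSMUSG00000026923, chromosome 2, 26457903 to 26516663, minus strand; coordinates of all 10 genes are GRCm38 from GENCODE M21), the receptor with the best known part in keratinocyte differentiation, had 116, 54.3 and 60.04 in KO replicates 1 to 3 and 37.7, 55.0 and 53.5 in WT replicates 1 to 3. KO replicate 1 lay far above the other 5 libraries, KO replicate 3 was slightly above every WT library, and KO replicate 2 lay inside the WT range. The means were 76.8 ± 34.0 in KO and 48.7 ± 9.59 in WT (SD, n = 3 each), a log2 fold change of 0.58 ± 0.31 (SE; 95% interval -0.11 to 1.27; limma adjusted p = 0.463). Without KO replicate 1, the library with the high muscle transcripts, the log2 fold change was 0.24 (limma adjusted p = 0.876). The part of the muscle transcripts in the Notch1 value was not tested.

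Notch2 (ENSMUSG00000027878, chromosome 3, 98013527 to 98150361, plus strand), a receptor of many epithelial and immune cells, had 220, 302 and 235 in KO replicates 1 to 3 and 397, 318 and 189 in WT replicates 1 to 3. WT replicate 3 was the lowest library and WT replicates 1 and 2 the highest, so the WT range enclosed the whole KO range. Its log2 fold change was -0.20 ± 0.26 (SE; 95% interval -0.79 to 0.38; limma adjusted p = 0.807), and it turned to 0.028 without WT replicate 1 (limma adjusted p = 0.989). Notch3 (ENSMUSG00000038146, chromosome 17, 32120820 to 32166852, minus strand), a receptor best known from smooth muscle and pericytes, had the smallest residual spread of the 8 tested Notch pathway genes. It had 68.3, 87.9 and 70.5 in KO and 92.4, 93.4 and 81.0 in WT, and KO replicate 2 lay inside the WT range. Its log2 fold change was -0.24 ± 0.20 (SE; 95% interval -0.69 to 0.22; limma adjusted p = 0.681). Notch2 exceeded Notch1 in 6 of 6 libraries. The ratio of their normalised read counts was 1.90, 5.57 and 3.92 in KO replicates 1 to 3 and 10.5, 5.78 and 3.54 in WT replicates 1 to 3. Notch4, the endothelial receptor, stayed at 0 to 3.25 in KO and 0.873 to 1.31 in WT and was not tested.

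Jag1 was the main ligand transcript in this tissue. Jag1 (ENSMUSG00000027276, chromosome 2, 137081456 to 137116644, minus strand), a membrane ligand of the Jagged family, had 213, 251 and 196 in KO replicates 1 to 3 and 348, 292 and 212 in WT replicates 1 to 3. WT replicates 1 and 2 were above every KO library, while WT replicate 3 fell among them. The means were 220.2 ± 27.9 in KO and 284 ± 68.5 in WT (SD, n = 3 each), a log2 fold change of -0.34 ± 0.21 (SE; 95% interval -0.82 to 0.13; limma adjusted p = 0.549). It was -0.18 without WT replicate 1 and -0.54 without WT replicate 3. Jag2 (ENSMUSG00000002799, chromosome 12, 112907819 to 112929776, minus strand), the other Jagged ligand, had 131, 86.2 and 72.4 in KO and 65.0, 116 and 67.9 in WT. Its high libraries were KO replicate 1 and WT replicate 2, 1 of each group. The log2 fold change was 0.22 ± 0.29 (SE; 95% interval -0.42 to 0.87; limma adjusted p = 0.809) and turned to -0.019 without KO replicate 1 (limma adjusted p = 0.994). Jag1 exceeded Jag2 in 6 of 6 libraries, by 1.63-fold in KO replicate 1 up to 5.35-fold in WT replicate 1.

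Delta-like ligands had low values or were listed at 0. Dll1 (ENSMUSG00000014773, chromosome 17, 15367354 to 15376872, minus strand), the Delta-like ligand linked to keratinocyte stem cells in human skin, had 5.42, 9.48 and 8.58 in KO and 12.3, 13.1 and 5.22 in WT, which is 25 reads over the KO libraries and 32 over the WT libraries. It reached 10 in 2 libraries only and was not tested. Dll3 was at most 2.86 in any library and Dll4 was listed at 0 in all 6. By counting error alone, a 0 could still stand for up to 3 reads, worth 2.59 to 3.92 normalised counts depending on the library. A gene at exactly 0 in all libraries may also not have been counted: Acta1 was at 0 in KO replicate 1 beside 187 for Ckm and 922 for Myh4, other skeletal muscle genes. Dll4 is therefore given only as listed at 0.

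Lfng (ENSMUSG00000029570, chromosome 5, 140607320 to 140615545, plus strand), the fringe enzyme that extends the fucose on Notch receptors, had 20.6, 6.03 and 30.5 in KO replicates 1 to 3 and 25.4, 41.9 and 17.0 in WT replicates 1 to 3. The lowest library, KO replicate 2, rested on 7 reads, and the highest, WT replicate 2, on 48. The log2 fold change was -0.70 ± 0.54 (SE; 95% interval -1.90 to 0.50; limma adjusted p = 0.643), the widest interval of the 8 tested genes, and it was -0.067 without KO replicate 2 and -1.15 without KO replicate 3. Its residual SD of 0.91 on the log2 scale was larger than that of 96.7% of the tested genes, against 12.6% for Notch3.

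Rbpj (ENSMUSG00000039191, chromosome 5, 53466152 to 53657362, plus strand), which carries the Notch intracellular domain on DNA, had 101, 62.9 and 69.6 in KO and 89.5, 80.3 and 91.4 in WT. The KO libraries spread on both sides of the narrow WT range. The log2 fold change was -0.19 ± 0.23 (SE; 95% interval -0.70 to 0.32; limma adjusted p = 0.791). It was -0.39 without KO replicate 1 and -0.054 without KO replicate 2.

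Hes1 was the most abundant of the 10 genes in 6 of 6 libraries. Hes1 (ENSMUSG00000022528, chromosome 16, 30064384 to 30067796, plus strand), the basic helix-loop-helix repressor that serves as the standard readout of Notch, had 278, 447 and 239 in KO replicates 1 to 3 and 686, 556 and 247 in WT replicates 1 to 3. WT replicates 1 and 2 were highest and KO replicate 2 came next, while WT replicate 3 lay with KO replicates 1 and 3. The means were 322 ± 111 in KO and 496 ± 226 in WT (SD, n = 3 each), a log2 fold change of -0.55 ± 0.36 (SE; 95% interval -1.34 to 0.24; limma adjusted p = 0.563). It ranged from -0.99 without WT replicate 3 (limma adjusted p = 0.0999) to -0.26 without WT replicate 1 (0.880). Libraries have 2 styles of name in the labels, whose meaning is not given: KO replicate 1 and WT replicates 1 and 2 are named by a number and the other 3 by a letter. Between libraries named by a number the log2 difference of Hes1 was -1.15, and between those named by a letter 0.40, with 1 library on 1 side of each and thus no test. Of the other tested genes, Notch2 (-0.69 and 0.49), Jag1 (-0.58 and 0.068) and Rbpj (0.25 and -0.46) also changed sign. Notch1, Notch3, Jag2 and Lfng did not.

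Hey1 (ENSMUSG00000040289, chromosome 3, 8663359 to 8667256, minus strand), the other target repressor, was close to the limit of detection. It had 0, 3.45 and 0 in KO and 1.88, 6.98 and 1.31 in WT, which is 4 reads over the KO libraries and 11 over the WT libraries. It was not tested, and a difference was not detectable at this depth.

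**Figure D2:**
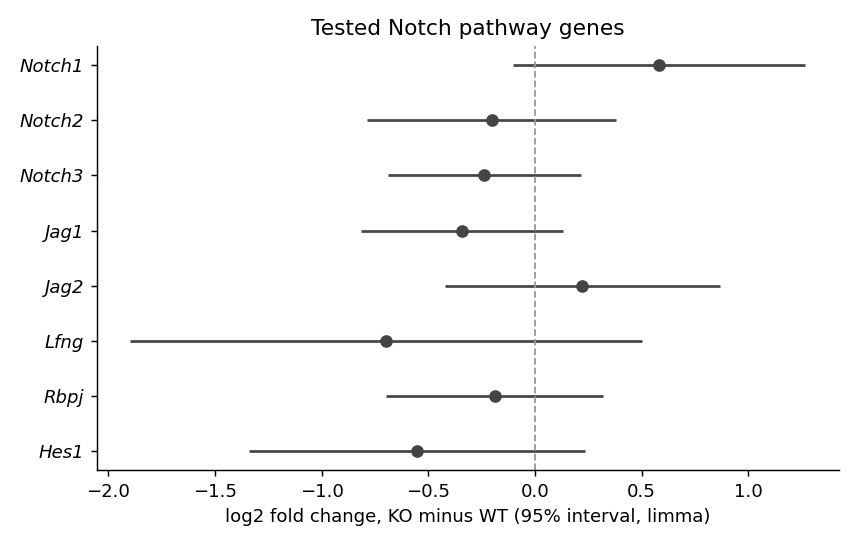
Log2 fold change of KO minus WT on the log2(value + 1) scale for the 8 tested genes, with a point at the estimate and a line over the 95% interval from limma. Every interval includes 0, and that of Lfng is the widest (-1.90 to 0.50).

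On the scale of normalised read counts, Hes1, Notch2 and Jag1 were the 3 highest of the 10 genes in 6 of 6 libraries. Notch2 lay above Jag1 in 5 of 6, so these neighbours were not separated beyond the spread between libraries. Jag2, Rbpj, Notch1 and Notch3 formed a middle group with means of 75.6 to 96.6 in KO and 48.7 to 88.9 in WT, and their order differed between libraries. Lfng, Dll1 and Hey1 followed, with means of 19.0, 7.82 and 1.15 in KO and 28.1, 10.2 and 3.39 in WT. For the last pair of these the mean rests on few reads.

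The 3 abundant genes and Notch3 shared a division of the libraries that was not the genotype. After subtraction of each gene's own mean on the log2 scale, Hes1, Notch2, Jag1 and Notch3 were above their mean in KO replicate 2 and WT replicates 1 and 2 and below it in KO replicates 1 and 3 and WT replicate 3. Notch3 was within 0.011 of its mean in WT replicate 3, and Jag1 was only 0.023 above its mean in KO replicate 2. The root mean square difference between the profiles of Notch2 and Jag1 was 0.15 log2 units over the 6 libraries, which placed Jag1 in rank 59 of 10986 genes by likeness to Notch2 and Notch2 in rank 147 by likeness to Jag1. Notch2 was in rank 123 and Jag1 in rank 246 by likeness to Hes1, but Hes1 was in rank 1022 by likeness to Notch2 and in rank 2632 by likeness to Jag1. Notch3 was in rank 253 by likeness to Jag1. The 6 libraries share preparation and depth across all genes, so this is a description of these libraries. Over all tested genes, deviations from the group means in KO replicate 2 correlated at 0.41, 0.03 and -0.40 with those in WT replicates 1 to 3. The share of all tested genes with the same division was not counted, so it is not shown to be particular to these genes. Notch1 ran otherwise: by likeness to Notch1, Jag2 was in rank 565 and Hes1 in rank 10164.

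**Figure D3:**
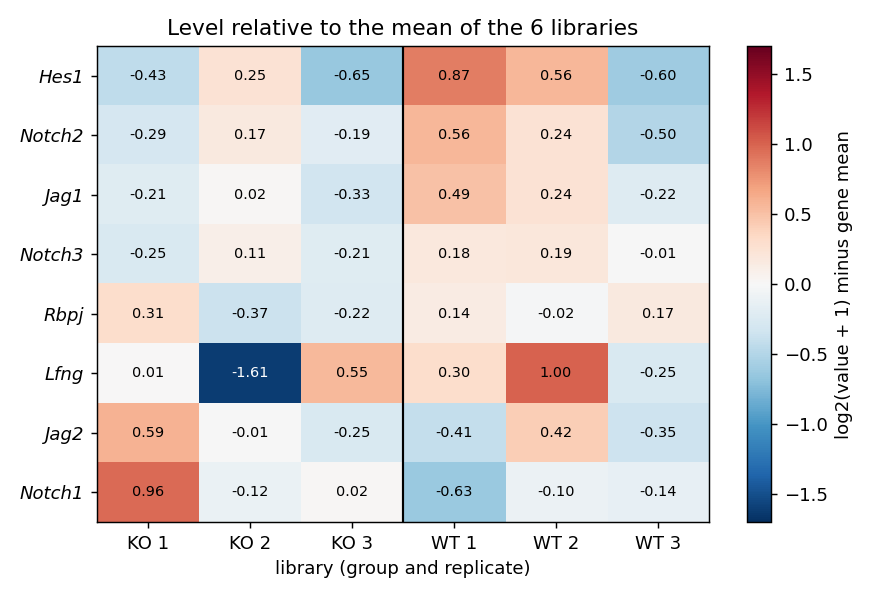
Level of each tested gene in each library relative to its mean over the 6 libraries, as log2(value + 1) minus the gene's mean, with KO libraries left of the line and WT libraries right of it. Hes1, Notch2, Jag1 and Notch3 are positive in KO 2, WT 1 and WT 2, and Notch1 has its highest value in KO 1.

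The genes with the most similar profiles were named by a fixed rule, the 3 smallest root mean square differences. For Hes1 they were Cgn, Tmeff1 and Ube2g2, with differences of 0.10, 0.12 and 0.12 log2 units. Cgn, which encodes the tight junction protein cingulin, had 263, 460 and 247 in KO and 713, 472 and 240.3 in WT. For Notch1 they were Zfp593, Ccne1 and Rrp8 (0.10, 0.10 and 0.11). Ccne1, the cyclin of entry into S phase, had 46.6, 20.7 and 21.9 in KO and 14.1, 17.5 and 18.3 in WT, so that it too was highest in KO replicate 1. For Jag2 they were Gas6, Smco4 and Prpf40b (0.045, 0.093 and 0.12). Gas6, a secreted ligand of the TAM receptor kinases, had 52.0, 31.9 and 28.6 in KO and 26.4, 47.1 and 26.1 in WT. Krt10, an early suprabasal keratin that was named after its values were seen, had the same order of libraries within each group as Hes1. Krt10 was in rank 879 of 10986 genes by likeness to Hes1. It had 2738, 6645 and 2435 in KO and 15655, 7995 and 2744 in WT (log2 fold change -0.98, limma adjusted p = 0.496). Its log2 fold change was -0.40 without WT replicate 1 and -1.66 without WT replicate 3 (limma adjusted p = 0.862 and 0.0900). Krt13 and Krt4, other keratins in the list of keratinocyte genes, did not have the order of Hes1. Krt13 had 328701, 234931 and 258363 in KO and Krt4 had 240543, 112709 and 189854. Each was lowest of the KO libraries in replicate 2, where Hes1 was highest of them.

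A wider list of 66 genes of the pathway, which includes the 10, gave the same count. Of the 66, 49 were tested and 0 were called by limma, edgeR or DESeq2, and each tool gave 4 an unadjusted p under 0.05. Over all genes, unadjusted p was under 0.05 for 13.5% with limma, for 1499 of 10987 with edgeR and for 1258 of 10982 with DESeq2. The median log2 fold change was 0.08, against -0.01 over all tested genes. The groups did not overlap in 7 of the 49, of which 5 were higher and 2 lower in KO, beside 9.84% of all tested genes that were higher without overlap and 9.25% that were lower. No gene of the list stood in the authors' deposited table of 341 called genes.

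In the target factors 4 of 10 were tested and Heyl had the lowest p. Heyl, the Hey-family repressor best known from vascular smooth muscle, had 29.3, 37.1 and 17.2 in KO and 8.48, 13.1 and 16.98 in WT. The groups were barely apart, with KO replicate 3 just above WT replicate 3. The log2 fold change was 1.04 ± 0.40 (SE; 95% interval 0.16 to 1.92; limma adjusted p = 0.271). Of the 2 tested mural cell markers, Acta2, the smooth muscle actin, had 65.0, 47.4 and 21.0 in KO and 5.65, 19.2 and 6.53 in WT (limma adjusted p = 0.0909). The other, Cspg4, a proteoglycan of pericytes, lay the other way, with 43.3, 37.1 and 60.99 in KO and 61.3, 90.8 and 52.2 in WT (log2 fold change -0.51, limma adjusted p = 0.479). Pdgfrb, also on the mural list, was at most 2.86 in any library, and the cell source of Cspg4 here was not tested. The 8 mural cell markers summed to 228, 99.1 and 110 in KO replicates 1 to 3 and 75.7 to 132 in WT. Only KO replicate 1, the library with the high muscle transcripts, was above the WT range. There Rgs5 had 47.7, against at most 6.98 in any other library. Of the 8 mural markers 0 were called, and none was at 0 in all libraries. The 10 endothelial markers summed to 56.2 to 85.6 in KO and 26.1 to 42.4 in WT, without overlap, 1 of the 10 was tested and 0 were called, and none was at 0 in all libraries. The 8 fibroblast markers summed to 252 to 1145 in KO and 1428 to 1968 in WT, also without overlap but lower in KO. Most of each WT sum came from Dcn, a collagen-binding proteoglycan, with 530, 195 and 544 in KO and 1658, 1329 and 1856 in WT. The lower sum in KO is thus not shown for the markers other than Dcn. Of the 8 markers 4 were tested and 1 fell, Dcn (log2 fold change -2.06, limma adjusted p = 0.0152). Over all tested genes 0.583% were called lower in KO. The other tested markers did not pass. Col1a1 (log2 fold change 1.01) and Col1a2 (1.15) were positive, with their highest values, 190 and 235, in KO replicate 1, and Fbln1 was negative (-0.47). None of the 8 was at 0 in all libraries, but Lum and Postn were at 0 in every WT library. The part of these marker lists in the Heyl value was not tested. Hes2 (log2 fold change 0.20) and Hes6 (0.024), further Hes-family factors, did not pass, and Hes3, Hes5 and Nrarp were listed at 0 in every library. Nrarp is a feedback inhibitor that Notch induces in many tissues.

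Receptor cleavage had 9 of 9 genes tested and 0 called. The groups did not overlap in 4 of the 9, with 3 higher and 1 lower in KO, against 19.1% of all tested genes. Furin, the convertase that cuts the Notch precursor in the Golgi, had 518, 580.0 and 580.4 in KO and 314, 373 and 504 in WT, with no overlap. Its log2 fold change was 0.52 ± 0.20 (SE; limma adjusted p = 0.270). Aph1b, a subunit of γ-secretase, had 73.7, 73.3 and 58.1 in KO and 82.9, 95.1 and 101 in WT, also with no overlap (log2 fold change -0.44 ± 0.21 (SE), limma adjusted p = 0.392). Adam10, the sheddase that cuts the receptor at the cell surface, had a log2 fold change of -0.081. Adam17, also in the cleavage list, had 172, 166.3 and 184 in KO and 144, 148 and 165.9 in WT, barely without overlap. Its log2 fold change was 0.19 (limma adjusted p = 0.705).

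Among genes of ligand endocytosis and receptor turnover, 9 of 13 were tested. Neurl1b, a ubiquitin ligase that acts on Notch ligands, had 74.8, 25.9 and 75.3 in KO and 85.8, 134 and 94.0 in WT, without overlap (log2 fold change -0.95 ± 0.38 (SE), limma adjusted p = 0.305). Its log2 fold change was -0.45 without KO replicate 2. Dtx3l, a Deltex-family ubiquitin ligase that interferon induces, had 18.4, 6.03 and 12.4 in KO and 15.1, 97.7 and 23.5 in WT, where WT replicate 2 was far above the rest (log2 fold change -1.47 ± 0.63 (SE), limma adjusted p = 0.342). Without WT replicate 2 the log2 fold change of Dtx3l was -0.70. Itch, a ubiquitin ligase that promotes removal of the receptor, had a log2 fold change of 0.12. Fbxw7, the adaptor for degradation of the intracellular domain, was listed at 0 in all libraries.

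Of 8 glycosylation genes 7 were tested, with a median log2 fold change of 0.16. Those with the lowest p were Poglut1, which adds glucose to the receptors (0.41, limma adjusted p = 0.522), and Pofut1, which adds fucose (0.39, limma adjusted p = 0.619). Of the nuclear complex 14 of 15 genes were tested, with a median log2 fold change of 0.14. Its lowest p belonged to Maml2, a Mastermind coactivator (0.40, limma adjusted p = 0.459). Dlk1, a Delta-like protein without the domain that activates Notch, was the only tested ligand beyond Jag1 and Jag2 and had 23.8, 0 and 8.58 in KO and 28.3, 26.2 and 6.53 in WT (log2 fold change -1.55, limma adjusted p = 0.569). Without KO replicate 2, which was at 0, its log2 fold change was -0.24, and it was -1.01 with edgeR and -0.92 with DESeq2.

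**Figure D4:**
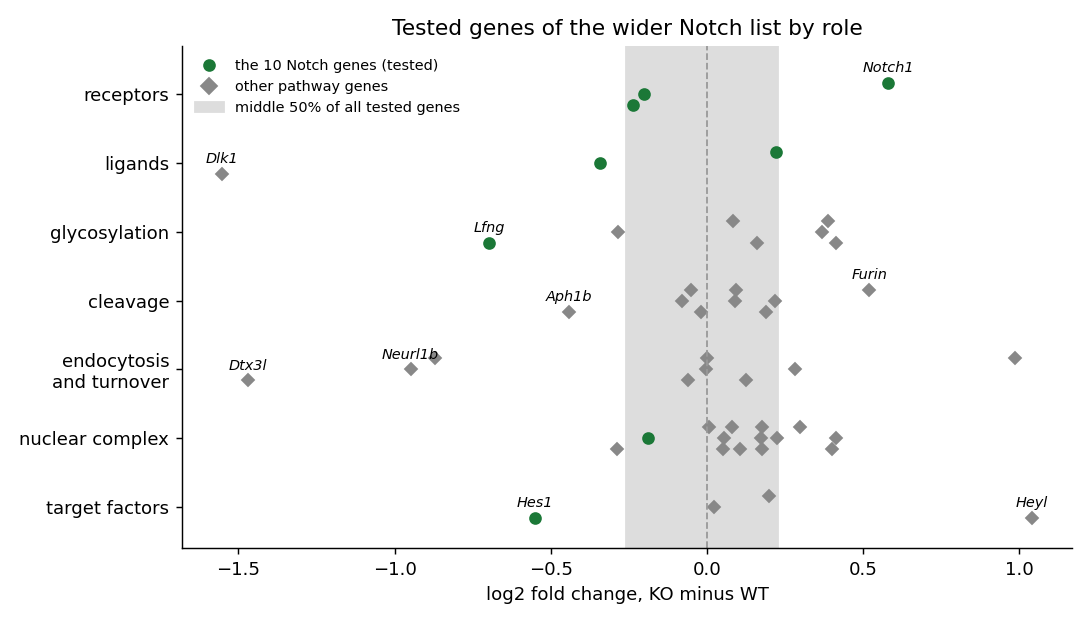
Log2 fold change of KO minus WT for the 49 tested genes of the wider list, by role, with green circles for the tested genes among the 10 and grey diamonds for the others. The grey band spans the middle 50% of all tested genes, -0.26 to 0.23, and Heyl (1.04) and Dlk1 (-1.55, or -0.24 without KO replicate 2) lie at the ends.

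**Figure D5:**
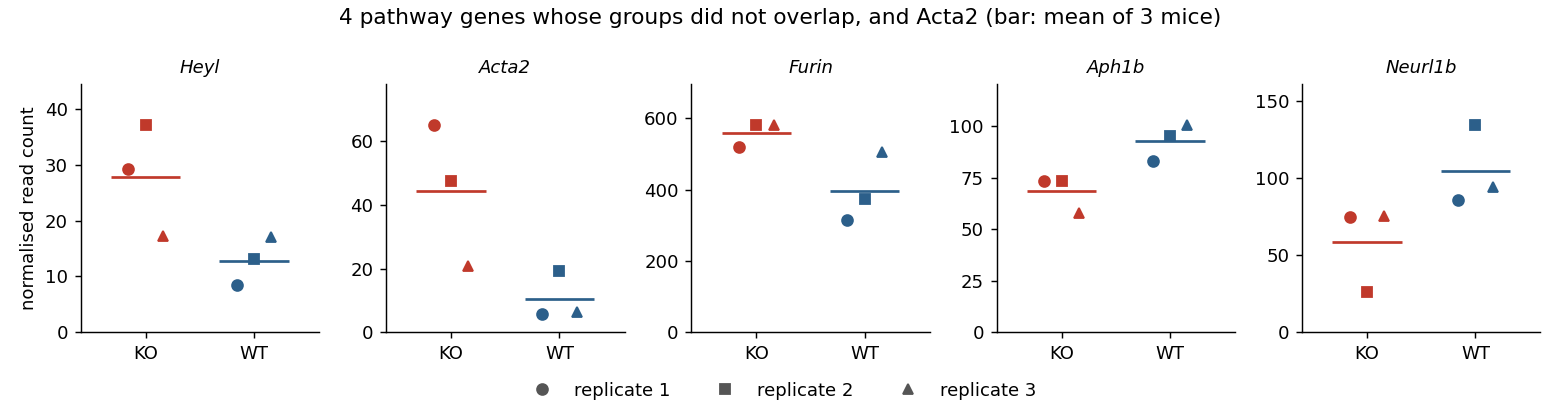
Normalised read counts by library of Acta2 and of 4 of the 7 pathway genes whose groups did not overlap. KO is on the left and WT on the right, with a bar at the mean of 3 mice. Cspg4, the other tested mural cell marker, lay the other way from Acta2 (log2 fold change -0.51) and is not shown. Heyl, Acta2 and Furin are higher in all 3 KO libraries, and Aph1b and Neurl1b are lower, with none of the 5 passing the adjusted threshold.

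In a list of 15 keratinocyte genes that bear on Notch, 13 were tested and 1 rose, beside 1.22% of all tested genes called higher in KO. It was Cdkn1a, the p21 inhibitor, which both Notch1 and p53 are known to induce in mouse keratinocytes. It had 17957, 13986 and 13154 in KO and 6048, 5319 and 6222 in WT, a log2 fold change of 1.35 ± 0.21 (SE; limma adjusted p = 0.0106). The call did not hold with KO replicate 1 left out (limma adjusted p = 0.0605), with KO replicate 3 left out (0.05005) or with WT replicate 2 left out (0.0516). DESeq2 called 4 genes of the list, adding the basal keratins Krt14 and Krt5, which were higher in KO, and Krt15, which was lower, beside 3.35% of all genes that DESeq2 tested. Trp63, the basal keratinocyte factor that opposes Notch in mouse epidermis, had 394, 469 and 531 in KO and 694, 791 and 599 in WT, without overlap, and did not pass (log2 fold change -0.58 ± 0.18 (SE), limma adjusted p = 0.170). It was named after its values were seen.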

How the data were processed

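Tongue epithelium of 6 mice (3 KO, 3 WT) was profiled with the QuantSeq 3' mRNA kit, per the labels' protocols. Groups and replicate numbers come from the sample titles, and 0 columns of values were left unmatched. The authors deposited normalised read counts per gene, a signal on a linear scale, per the file headers. The submitters' processing notes list the tools FastQC, STAR, featureCounts and DESeq2. Their versions, the build, the annotation and the strand setting were not found in the labels or headers, so reads of a gene and of an overlapping antisense gene cannot be told apart. Such genes overlap the 3' ends of Notch1 and Notch3 and had at most 4.71 and 5.17 in any library. A second table by the authors lists their called genes. It holds q-values, p-values, a test score and log2 fold changes, per the file headers, and only its gene names were used. Coordinates are from GENCODE M21 (GRCm38), matched by gene ID.

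Every value was a whole multiple of 1 step per library (100% within 0.01 of a read), so whole reads were recovered for edgeR 4.0.16, which called 190 genes, and DESeq2 1.42.0, which called 368. The main test was limma 3.58.1 in R 4.3.3 with an intensity trend on log2(value + 1), for genes of at least 10 in at least 3 libraries, with Benjamini-Hochberg adjustment over all 10987 genes at 0.05, two-sided. It called 198 genes. Fold changes of low genes on this scale depend on the added 1. That of Lfng was -0.70 in the main test, -0.72 with 0.5 added and -0.55 with 5 added. It was -0.60 with edgeR and -0.59 with DESeq2. With 3 mice against 3 an exact permutation test cannot go below 0.1 and was not used. The fits were run on simulated counts with a fixed dispersion for all genes. This does not show how many changes would be missed at the spread of these libraries. Alternatives were the pseudocount, the filter, the scaling, the tool, the replicate number as a block, the style of library name as a covariate, and leaving out each library. The members and gene lists were chosen with earlier results of these data known. Named genes are the 10 members, for each role of the wider list those that passed or else the 2 non-members with the lowest p, and the 3 genes most like Notch1, Jag2 and Hes1. Others named (Krt10, Trp63, Krt14, Krt5, Krt15, Krt13, Krt4, Acta2, Cspg4, Dcn, Col1a1, Col1a2, Fbln1, Ckm, Myh4, Adam10, Adam17, Itch, Hes6, Ascl2, Ern1 and those below the filter) were chosen after their values were seen. Proteins were not compared, and some genes that the rule names are not reported here.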

Additional observations from a re-analysis of the deposited data

How the results depend on the processing

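No tested Notch pathway gene passed under any of the 16 alternatives, where the lowest adjusted p was 0.0999, for Hes1 without WT replicate 3. Of 127 values of the 8 tested genes under these alternatives, 125 kept their direction and 2 reversed. Leaving out 1 library, Notch2 ranged from -0.50 to 0.0285, reversing without WT replicate 1, and Jag2 from -0.0188 to 0.49, reversing without KO replicate 1. Hes2 ranged from -0.0775 to 0.70 and reversed to -0.0445 without KO replicate 1, to -0.0266 without WT replicate 1 and to -0.0775 without WT replicate 2. The count of wider pathway genes that passed was 0 throughout. With no filter, the log2 fold change was -0.28 for Dll1 (limma adjusted p = 0.861) and -1.19 for Hey1 (0.647).

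Over all genes, those higher in KO numbered 134 and those lower 64. They numbered 216 and 152 with DESeq2 and 61 and 21 with the style of library name as a covariate. Leaving out 1 library gave 48 to 129 higher and 16 to 57 lower, with the fewest higher without KO replicate 1 and the fewest lower without WT replicate 2. The higher count moved by over 1.5 times without WT replicate 2 (64) or KO replicates 1, 2 or 3 (48, 68 and 49), and the lower count without WT replicates 1 or 2 (38 and 16) or KO replicates 1 or 3 (27 and 19). The cause was not tested. Lfng had no value with the filter at 50, since its highest library was at 41.9. With the replicate number as a block, 117 were higher and 61 lower, and 0 Notch pathway genes passed. Whether the numbers pair the mice is not shown. Same-numbered libraries had deviation correlations of -0.25, 0.03 and 0.28. Those of differently numbered libraries ran from -0.40 to 0.41, so the correlations cannot decide it. With the name style as a covariate the log2 fold change of Hes1 was -0.37. Depth limits Dll1, Hey1 and Lfng, with 25, 4 and 58 reads over the KO libraries and 32, 11 and 88 over the WT libraries.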

Other observations

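Ascl2, a basic helix-loop-helix factor in the list of keratinocyte genes, had 53.1, 37.1 and 62.9 in KO and 80.1, 99.5 and 91.4 in WT, without overlap. Its log2 fold change was -0.84 ± 0.25 (SE; 95% interval -1.38 to -0.30) and it did not pass (limma adjusted p = 0.136). It was named after its values were seen.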
